A study of Mus musculus with 8 samples.

Results

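A group of 9 transcription factor genes that mark or specify classes of sensory neuron was followed in mouse dorsal root ganglia (DRG) after carrageenan, an irritant that inflames the injected paw. The members, Isl1, Pou4f1, Pou4f3, Prdm12, Runx1, Runx3, Etv1, Shox2 and Maf, were taken by name from the table of counts per gene, and all 9 of 9 were found among its 24421 genes. All 9 also passed the filter on low counts, which left 17328 genes for testing. Wild-type C57BL/6J mice, aged 8 weeks by the series description (the study's methods give a wider range of ages and male mice), received 20 µl of 1% carrageenan in the left hind paw and were taken after 1 day (1d), 3 days (3d) or 30 days (30d). Naive mice with no injection gave the 0d group. Each library was made from L3 to L5 DRG on the injected side, pooled over 2 to 3 mice, with 2 libraries per time point and 8 in all. The naive mice were the only controls, so the effects of injection, inflammation and elapsed time cannot be told apart.

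The labels name the cell type as DRG neurons, but whole ganglia were extracted. The 13 pan-neuronal markers summed to between 25303 and 27002 CPM (counts per 1000000 counts of a library) in the 8 libraries, and the 6 Schwann cell markers summed to between 5674 and 11130 CPM. The 6 satellite glia markers summed to between 2851 and 3464 CPM, while 6 T and B cell markers summed to no more than 5.66 CPM. Depth ran from 44123208 to 73580338 counts per library. In such bulk RNA, fewer neurons of a class and less RNA per neuron cannot be told apart.

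Sensory neurons of the DRG arise from the neural crest and split into nociceptors, which report pain, heat and itch, mechanoreceptors, which report touch, and proprioceptors, which report muscle stretch. Isl1 and Pou4f1 act in nearly all of them as they leave the cell cycle, and later factors then fix each class. Several of these factors stay on in adult neurons, where they maintain the receptors and channels of their class.

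The RUNX factors bind DNA at the motif TGTGGT, which reads ACCACA on the opposite strand, and RefSeq windows from 250 bases before to 50 bases after a transcription start were searched for it on both strands. The motifs CCGGAAG (ETS), TAATTA (homeodomain), TGCTGAC (MAF half-site) and TGCATAAT (POU4F) were searched in the same way. The tables held 10 such windows for 7 of the members. Runx1 and Runx3, which serve the nociceptor and proprioceptor classes, are each listed with 2 starts. Their upstream windows are shown because each holds the motif 2 times, and that of Shox2 because it was the member with the smallest p over the time course. Capitals mark every match to any of these motifs, the strands are those of transcription, and the build is GRCm38.p6.

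Runx1 upstream window, chr16:92826025-92826324, minus strand: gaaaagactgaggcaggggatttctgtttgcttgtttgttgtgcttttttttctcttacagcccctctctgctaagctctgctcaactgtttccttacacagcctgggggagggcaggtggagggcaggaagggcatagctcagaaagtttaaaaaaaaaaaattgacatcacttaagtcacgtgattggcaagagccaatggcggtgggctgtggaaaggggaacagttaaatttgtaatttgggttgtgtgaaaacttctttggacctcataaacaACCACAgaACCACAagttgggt

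Runx3 upstream window, chr4:135120395-135120694, plus strand: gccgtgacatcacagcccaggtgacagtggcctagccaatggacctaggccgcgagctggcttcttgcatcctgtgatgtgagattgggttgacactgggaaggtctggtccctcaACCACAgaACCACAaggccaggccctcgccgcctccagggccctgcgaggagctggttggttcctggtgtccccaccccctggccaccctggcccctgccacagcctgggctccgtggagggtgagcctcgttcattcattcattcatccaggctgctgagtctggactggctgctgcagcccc

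Shox2 window, chr3:66981722-66982021, minus strand: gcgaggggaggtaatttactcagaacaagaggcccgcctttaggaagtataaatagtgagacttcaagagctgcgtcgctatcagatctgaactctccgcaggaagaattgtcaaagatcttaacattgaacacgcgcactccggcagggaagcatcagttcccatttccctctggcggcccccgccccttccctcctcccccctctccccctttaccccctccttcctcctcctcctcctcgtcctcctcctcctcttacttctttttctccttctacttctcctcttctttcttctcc

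In the Runx1 window the matches began at positions 29 and 37, counting the start base as 1, and in the Runx3 window they began at positions -134 and -126, before the start. In both, the matches lay head to tail with 2 bases between them. At least 1 match occurred in 16.8% of all 32851 windows, and at least 2 matches in 1.81%. The pair at this spacing, looked for after it was seen in the members, occurred in 7 windows, or 0.0213%. Those 7 included the third family member Runx2 and a window of the neighbouring gene Gm16225 that overlaps that of Runx3. The Shox2 window held no match, nor did the downstream windows of Runx1 and Runx3 or those of Isl1, Pou4f1 and Prdm12. The first of the Etv1 windows held 1 match, at position -192. Of the other 4 motifs the only match in the 10 windows was a MAF half-site at position -25 of the second Etv1 window. Over all windows the ETS motif occurred in 8.86%, the homeodomain motif in 5.29%, the MAF half-site in 4.67% and the POU4F motif in 0.591%. These matches describe the letters and are not evidence of binding. The deposited counts add all exons of a gene, so transcripts from the upstream and downstream starts of Runx1 or Runx3 were not measured apart.

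In mm10, the build of the table, the pan-sensory pair lies at chr13:116298270-116309688 (Isl1) and chr14:104462325-104467999 (Pou4f1). Pou4f3, only grouped with them here, lies at chr18:42394597-42396093. The nociceptor factors lie at chr2:31640037-31655795 (Prdm12) and chr16:92601466-92826074 (Runx1), and the proprioceptor factors at chr4:135120645-135177990 (Runx3) and chr12:38780258-38868215 (Etv1). The mechanoreceptor factors lie at chr3:66971723-66981771 (Shox2) and chr8:115703253-115706894 (Maf, a single exon). All values sum the reads over the exons of each gene.

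Levels of the 9 factors spanned a wide range, and their order is given here as CPM per kilobase of exon (RPKM). At 0d the mean RPKM ± SD (n = 2) was 109 ± 6.77 for Prdm12, 62.3 ± 3.13 for Pou4f1 and 34.0 ± 1.23 for Isl1. Prdm12, a PR-domain regulator needed for nociceptors to form, was thus at a higher level than the pan-sensory pair. Maf, at 29.3 ± 1.28 RPKM, and Etv1, at 28.4 ± 1.99 RPKM, came next. Pou4f3 stood at 14.5 ± 1.17 RPKM, Runx1 at 14 ± 0.994 RPKM, Shox2 at 10.0 ± 0.143 RPKM and Runx3 at 5.08 ± 0.209 RPKM. The ranges over the 8 libraries overlapped between 2 pairs of neighbours in this order, Maf with Etv1 and Pou4f3 with Runx1. Every other pair of neighbours was separate in all 8 libraries. By mean RPKM, Prdm12 stood above 96.6% of tested genes and Runx3 above 44.3%.

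**Figure D1:**
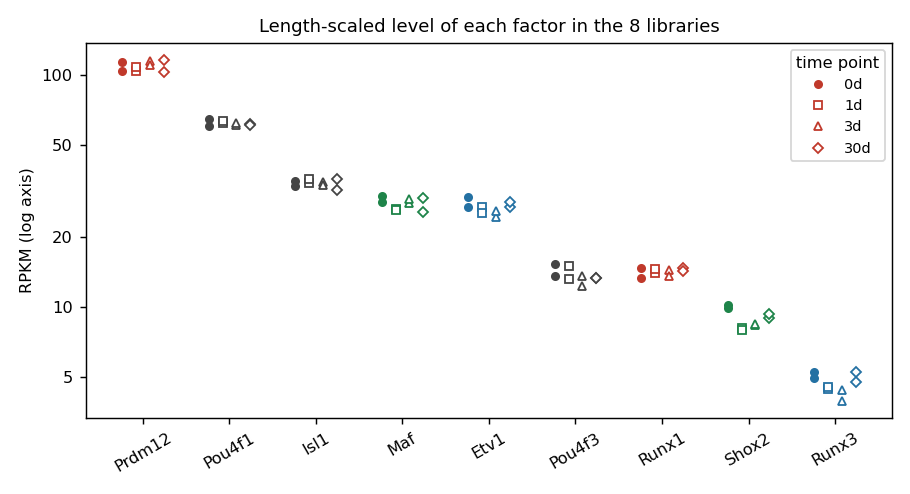
RPKM (log axis) of each factor in each library, grouped by time point (marker shape) and coloured by role: grey the pan-sensory pair and Pou4f3, red nociceptor, blue proprioceptor, green mechanoreceptor. Prdm12 lies near 109 RPKM and Runx3 near 5.08 RPKM at 0d, and only Maf with Etv1 and Pou4f3 with Runx1 overlap as neighbours.

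None of the 9 factors was called differentially expressed in any of the 5 comparisons between time points. Each was tested with edgeR's quasi-likelihood test at a Benjamini-Hochberg adjusted p under 0.05 over all tested genes. Over all genes, the share called was 0.346% for 1d against 0d, 0.219% for 3d against 0d and 0.0231% for 30d against 0d. It was 0.289% for 3d against 1d and 0.935% for 30d against 3d. At these shares a list of 9 genes would hold fewer than 1 call if it behaved as all genes did, so the count of 0 does not set the members apart. The test over all 4 time points called 1.02% of genes and 0 of the 9 members.

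Before adjustment, p was under 0.05 for 2 members in 1d against 0d, Shox2 and Maf, both lower at 1d, where 2.11% of all genes were lower with such a p. In 3d against 0d it was so for 3 members, Runx3, Etv1 and Shox2, all lower at 3d, where 2.44% of all genes were. In 30d against 3d it was so for 2 members, Runx3 and Etv1, both higher at 30d, where 6.04% of all genes were. No member had an unadjusted p under 0.05 in 30d against 0d, where 12.3% of all genes did in either direction, or in 3d against 1d, where 4.24% did. These directions were read from the members themselves. All 4 genes so named belong to the proprioceptor and mechanoreceptor factors. The median log2 fold change of the 9 members was -0.04 at 1d, -0.03 at 3d and -0.03 at 30d against 0d. Over all genes it was within 0.01 of 0 in each comparison.

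**Figure D2:**
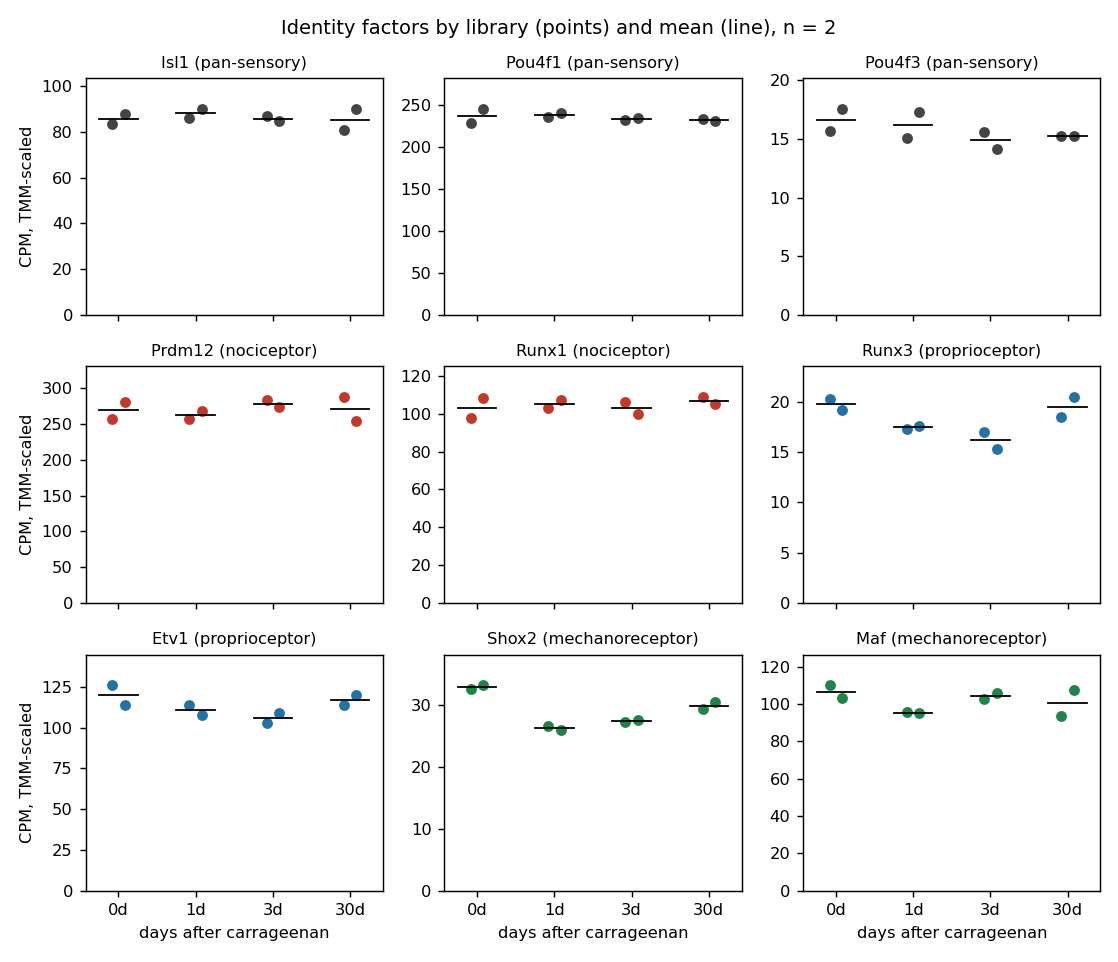
CPM after TMM scaling (y axis, from 0) of each factor in the 2 libraries (points) and their mean (line) at 0d, 1d, 3d and 30d after carrageenan. Shox2 runs from 32.4 and 33.1 CPM at 0d to 26.6 and 26.0 CPM at 1d, whereas Pou4f1 stays between 228 and 245 CPM.

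Among the pan-sensory factors, Pou4f1 (also called Brn3a), a POU-homeodomain factor, gave 228 and 245 CPM at 0d and 236 and 241 CPM at 1d. It gave 232 and 235 CPM at 3d and 233 and 231 CPM at 30d. All later values lay inside the 0d pair. Its coefficient of variation over the 8 libraries was 2.29%, and only 2.71% of tested genes had a smaller one. That share was not matched for level, and Pou4f1 stood above 93.1% of tested genes by mean RPKM. The 95% intervals of its 3 comparisons with 0d ran from -7.84% to 7.44% at the widest.

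Isl1, a LIM-homeodomain factor, gave 83.7 and 88.1 CPM at 0d, 86.3 and 90.0 CPM at 1d, 87.0 and 84.9 CPM at 3d, and 80.7 and 90.0 CPM at 30d. The groups overlapped in every comparison. The intervals against 0d ran from -8.83% to 11.99% at the widest.

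Pou4f3 (Brn3c), a relative of Pou4f1 best known in the hair cells of the inner ear, had 15.65 and 17.5 CPM at 0d, 15.1 and 17.3 CPM at 1d, 15.58 and 14.2 CPM at 3d, and 15.3 and 15.3 CPM at 30d. Both 3d and both 30d libraries lay below both 0d libraries, at 3d by a margin of less than the gap between the 0d libraries. Its log2 fold change was -0.16 ± 0.11 (SE) at 3d and -0.12 ± 0.11 at 30d, with unadjusted p values of 0.161 and 0.278 from the quasi-likelihood test. Without 0d replicate 2 these were -0.07 at 3d and -0.04 at 30d, and scaling to the pan-neuronal markers gave -0.06 at 30d. With 700 to 1076 counts per library, its interval against 0d reached from -23.6% to 14.5%.

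The nociceptor factors overlapped with 0d at every later time point. Prdm12 gave 257 and 281 CPM at 0d, 257 and 268 CPM at 1d, 284 and 274 CPM at 3d, and 287 and 254 CPM at 30d. Its lowest and highest values over the 8 libraries were the 2 replicates of 30d. The log2 fold changes against 0d were -0.04, 0.05 and 0.01 at 1d, 3d and 30d, and the intervals stayed within -10.6% and 12.9%.

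Runx1, which directs nociceptors toward the non-peptidergic fate, gave 98.1 and 108 CPM at 0d and 103 and 107 CPM at 1d. It gave 106 and 100 CPM at 3d and 109 and 105 CPM at 30d. The 4 groups overlapped. The intervals against 0d stayed within -8.04% and 12.5%.

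The proprioceptor factors had their lowest means at 3d and means near those of 0d at 30d, with no comparison past the adjusted threshold. Runx3, which sets the proprioceptor fate, gave 20.4 and 19.2 CPM at 0d and 17.3 and 17.6 CPM at 1d. It gave 17.0 and 15.3 CPM at 3d and 18.5 and 20.5 CPM at 30d. Both 1d and both 3d libraries lay below both at 0d, and both 30d libraries lay above both at 3d.

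The log2 fold change of Runx3 was -0.18 ± 0.10 (SE) at 1d, -0.29 ± 0.10 at 3d and -0.02 ± 0.10 at 30d against 0d. The adjusted p at 3d was 0.513 in the quasi-likelihood test. From 3d to 30d the log2 difference was 0.27, with a 95% interval from 0.06 to 0.48 and an adjusted p of 0.245.

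Etv1 (ER81), an ETS factor needed for muscle afferents to reach their targets, gave 126 and 114 CPM at 0d and 114 and 108 CPM at 1d. It gave 103 and 109 CPM at 3d and 114 and 120 CPM at 30d. At 3d both libraries lay below both at 0d, by a log2 fold change of -0.18 ± 0.06 (SE) with an adjusted p of 0.482, and without 0d replicate 1 it was -0.10. At 1d both libraries also lay below both at 0d, though the higher 1d value and the lower 0d value were both near 114 CPM. From 3d to 30d the log2 difference was 0.14 with an adjusted p of 0.301. Of the 50-base words in the longest Etv1 transcript, 17.5% also occur in Gm5454, so part of its reads may not have been assigned to 1 place.

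Of the mechanoreceptor factors, Shox2, a homeodomain factor of neurons that carry the BDNF receptor TrkB, had the smallest p of all members in each comparison with 0d and over all time points. It gave 32.4 and 33.1 CPM at 0d and 26.6 and 26.0 CPM at 1d. It gave 27.3 and 27.6 CPM at 3d and 29.2 and 30.5 CPM at 30d. The 2 libraries of each time point lay close together, and both libraries of each later time point were below both at 0d.

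Relative to 0d, the Shox2 value was -19.8% at 1d, with a 95% interval from -28.0% to -10.8%. The log2 fold change was -0.32 ± 0.07 (SE), and its unadjusted p of 0.00055 was the 83rd smallest of 17328. The adjusted p was 0.115 in the quasi-likelihood test. At 3d the log2 fold change was -0.26 ± 0.07 with an adjusted p of 0.310, and at 30d it was -0.13 ± 0.07 with an adjusted p of 0.466. Scaled to the pan-neuronal markers, the 30d value was -0.08. Over all time points the unadjusted p was 0.00253 and the adjusted p 0.129. The likelihood-ratio test of DESeq2 over all time points, which called 495 of 20550 genes, gave Shox2 an adjusted p of 0.0499. This was the one setting and comparison in which a member passed the threshold.

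Maf (c-Maf), a bZIP factor of touch neurons, gave 110 and 103 CPM at 0d and 95.9 and 94.9 CPM at 1d. It gave 103 and 106 CPM at 3d and 93.4 and 107 CPM at 30d. Both 1d libraries lay below both at 0d and both at 3d, while the 2 libraries at 30d differed by more than any group means did. The log2 fold change at 1d was -0.16 ± 0.06 (SE) with an adjusted p of 0.903. Over the 8 libraries Maf varied with the summed Schwann cell markers (r = 0.76), fibroblast markers (r = 0.66) and proprioceptor markers (r = 0.65), and opposite to the non-peptidergic (r = -0.73) and red blood cell markers (r = -0.72). The Schwann cell sums were 11130 and 8172 CPM at 0d against 7965 and 8031 CPM at 1d. For fibroblast markers they were 1615 and 1116 CPM against 1110 and 1158 CPM. Their part in the Maf values was not tested.

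**Figure D3:**
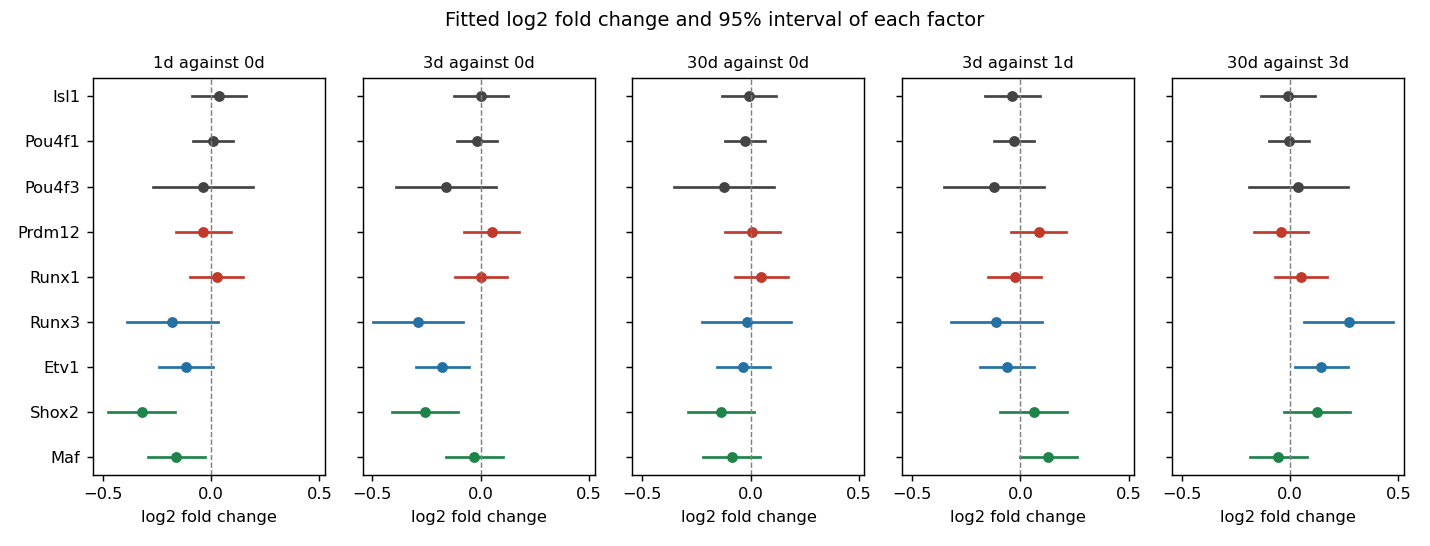
Log2 fold change (point) and 95% interval (line) of each factor in the 5 comparisons, from the quasi-likelihood fit with 2 libraries per time point. The interval of Shox2 lies below 0 at 1d and 3d, that of Maf at 1d, and those of Runx3 and Etv1 lie below 0 for 3d against 0d and above 0 for 30d against 3d, none of them past the adjusted threshold.

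Counting members by library ranges, 4 lay wholly lower at 1d than at 0d (Runx3, Etv1, Shox2 and Maf) and 0 wholly higher, where 16.4% of all genes were lower and 15.5% higher. At 3d the members wholly lower than 0d were also 4 (Pou4f3, Runx3, Etv1 and Shox2) and 0 were wholly higher, where 19.6% of all genes were lower and 19.9% higher. At 30d, 2 were wholly lower (Pou4f3 and Shox2) and 0 wholly higher, where 20.2% of all genes were lower and 19.4% higher. From 1d to 3d, 3 members were wholly higher (Prdm12, Shox2 and Maf), where 20.0% of genes were, and 2 wholly lower (Pou4f1 and Runx3), where 17.6% were. From 3d to 30d, 3 were wholly higher (Runx3, Etv1 and Shox2) and 0 wholly lower, where 22.9% of genes were higher and 23.5% lower. The comparisons with 0d share the same 2 control libraries, so these counts are not separate observations.

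Across the 8 libraries, the pairs of members that varied most alike in log2 CPM were Runx3 with Etv1 (Pearson r = 0.77), Runx3 with Shox2 (r = 0.74) and Etv1 with Shox2 (r = 0.71). The most opposed pair was Runx1 with Maf (r = -0.62). The coefficient of variation over the libraries was 9.63% for Runx3 and 9.28% for Shox2, and between 2.29% and 7.20% for the other 7. These are descriptions over libraries that share time points.

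For the 3 members with the smallest p over all time points, the 3 genes of most similar pattern among 17327 were as follows. Shox2 was closest to Prtg (r = 0.94), Begain (r = 0.94) and Creb3l1 (r = 0.94). Runx3 was closest to Zc3h7b (r = 0.96), 2810013P06Rik (r = 0.95) and Panx2 (r = 0.95). Etv1 was closest to H2-Ke6 (r = 0.96), BC107364 (r = 0.96) and Gm12530 (r = 0.95). Of all genes, 15, 35 and 27 had an r over 0.9 with Shox2, Runx3 and Etv1 respectively. No other member was among those nearest genes, and several of them were at low levels, with a mean of 0.111 CPM for BC107364 and 0.735 CPM for Prtg.

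A list of 26 other regulators of the sensory lineage gave context, of which 25 were tested. One of them was called, Etv5, an ETS factor of the same subfamily as Etv1. Etv5 gave 98.6 and 101 CPM at 0d, 121 and 120 CPM at 1d, 139 and 139 CPM at 3d, and 97.4 and 81.7 CPM at 30d. It rose at 3d against 0d (log2 fold change 0.47, adjusted p = 0.0079, quasi-likelihood test) and was lower at 30d than at 3d (-0.63, adjusted p = 0.00057). At the same time point Etv1 had a log2 fold change of -0.18, not called. The 3d call was lost without 0d replicate 1 or either 3d library, with a log2 fold change between 0.46 and 0.50, and the 30d call held without each library. Etv4, the third gene of that subfamily, had the next smallest p over all time points in this list (0.0107, adjusted p = 0.264) at a mean of 5.29 CPM, followed by Zeb2 (0.0148, adjusted p = 0.294).

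Markers of the classes that these factors serve were tested beside them. Of 6 proprioceptor markers, 1 was called: Pvalb, the calcium buffer parvalbumin, gave 76.2 and 76.1 CPM at 0d and 60.7 and 60.7 CPM at 3d. It fell at 3d against 0d by 0.33 on the log2 scale (adjusted p = 0.0237), the time point at which Runx3 and Etv1 also had their lowest means. With any single 0d or 3d library left out the Pvalb call was lost, with a log2 fold change still between -0.33 and -0.32. Ntrk3, the receptor TrkC of proprioceptors, gave a log2 fold change of 0.00 at 3d and -0.29 at 30d, neither of them called. Over the 8 libraries the summed proprioceptor markers had r = 0.63 with Runx3 and r = 0.71 with Etv1. The summed cold-sensing markers, of another class, had r = 0.75 and r = 0.69 with the same factors. The summed mechanoreceptor markers had r = -0.47 with Shox2 and r = -0.31 with Maf. Most of that sum came from a single gene, Ret, with a mean of 970 of 1624 CPM at 0d, so it says little about the class.

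Of 6 peptidergic nociceptor markers, 1 was called at 3d against 0d. Calca, which encodes the neuropeptide CGRP, gave 798 and 892 CPM at 0d and 1039 and 1076 CPM at 3d, and it rose by a log2 fold change of 0.32 (adjusted p = 0.0237). At 30d against 3d, 4 of the 6 were lower: Calca (-0.43, adjusted p = 0.0020), Adcyap1 (-0.49, 0.0020), Tac1 (-0.28, 0.0110) and Calcb (-0.36, 0.0128). All of them encode neuropeptides. The Calca call at 3d was lost without 0d replicate 1 or either 3d library (log2 fold change 0.25 to 0.41). At 30d against 3d, Calcb (-0.40 to -0.33) and Tac1 (-0.32 to -0.25) lost theirs without either 3d library and Adcyap1 (-0.56 to -0.44) without 3d replicate 1. Over the 8 libraries, the summed peptidergic markers, to which Calca contributed most, had r = -0.83 with Runx3 and r = -0.82 with Etv1. Negative r with Runx3 and Etv1 was not limited to the peptidergic list. The mechanoreceptor markers, a sum made up mostly of Ret, had r = -0.73 and -0.75. The non-peptidergic markers had -0.63 and -0.65, and the other lineage regulators -0.84 and -0.72. From 0d to 3d the mean sum of those regulators went from 1127 to 1168 CPM, and Etv5 alone from 100 to 139 CPM. Whether classes or single genes gave these values was not tested.

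Of 8 non-peptidergic markers, the class that Runx1 serves, 0 were called in the quasi-likelihood test, and the smallest p over all time points were those of P2rx3 (0.0088) and Mrgprd (0.0115). At an unadjusted p under 0.05, the list held Mrgprd in 1d against 0d (0.0299, higher, where 2.35% of all genes were) and in 3d against 1d (0.00139, lower, 1.99%). It held P2rx3 in 30d against 3d (0.00174, lower, 6.97%), and 0 genes at 3d and 30d against 0d. The adjusted p values were 1.00, 0.222 and 0.1002. Of 8 mechanoreceptor markers, 1 was called: Ret, the GDNF-family receptor kinase, was lower at 30d than at 3d by a log2 fold change of -0.22 (adjusted p = 0.0477). The Ret call was lost without either 1d or 3d library or without 30d replicate 2 (-0.30 to -0.15), and under 6 of 11 other settings. Ntrk2, the TrkB receptor of the neurons in which Shox2 acts, was not called in any comparison. Of 2 cold-sensing markers (Trpm8 and Foxp2) and 13 pan-neuronal markers, 0 were called, and the latter had the smallest p over all time points for Tubb3 (0.0068) and Snap25 (0.0202). At an unadjusted p under 0.05, the pan-neuronal markers gave 0, 3 and 4 genes at 1d, 3d and 30d against 0d, where 4.47%, 5.94% and 12.3% of all genes had one. In 30d against 3d, where 13.01% of all genes did, they gave 3: Tubb3 (log2 difference -0.17), Snap25 (0.14) and Stmn2 (-0.09). Trpm8, the cold-sensing channel, had a log2 difference of 0.25 there, with an unadjusted p of 0.0013 and an adjusted p of 0.0875.

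**Figure D4:**
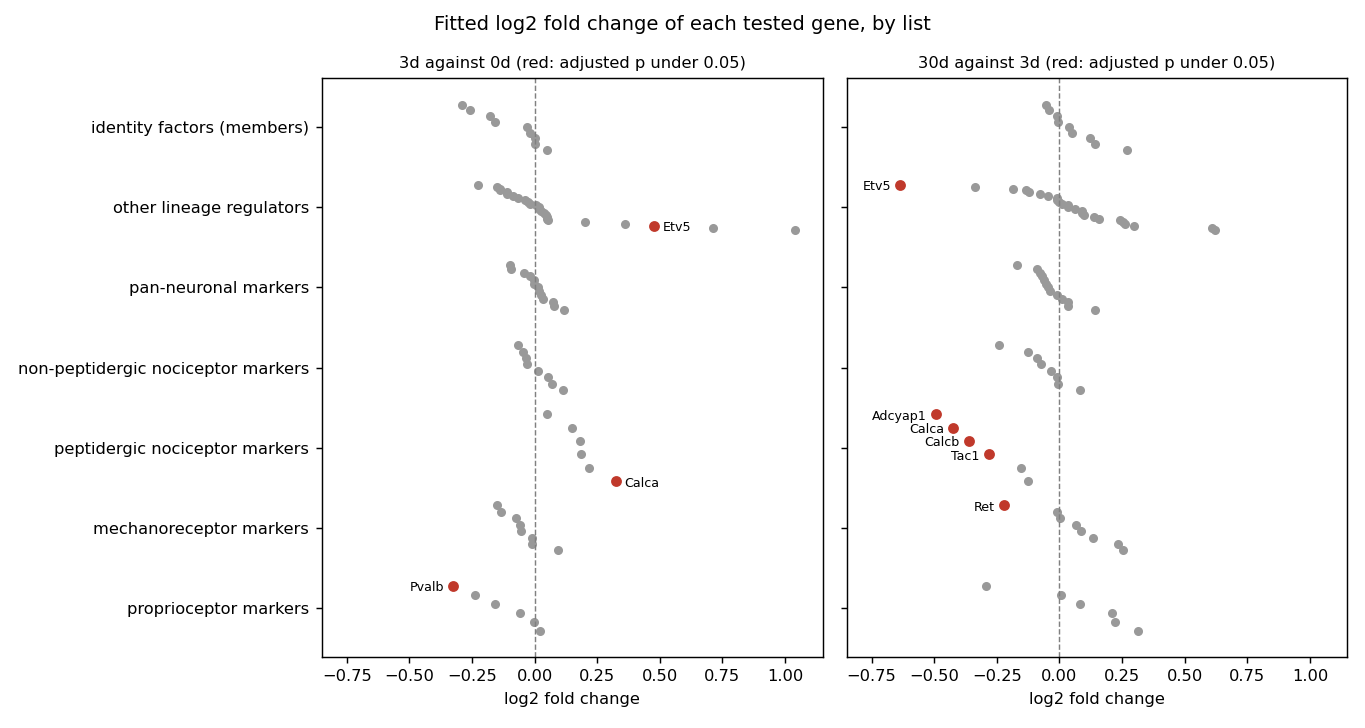
Log2 fold change (x axis) of every tested gene of the identity factors, the other lineage regulators and the neuronal marker lists at 3d against 0d (left) and 30d against 3d (right). Genes past the adjusted threshold of 0.05 are red and named: Etv5, Calca and Pvalb at 3d against 0d, and Etv5, Ret and 4 neuropeptide genes at 30d against 3d.

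Of these 17 called differences of listed genes, including those of other cells, 2 kept their call without each library in turn and under every other setting tried: Etv5 and Calca at 30d against 3d. For other cell types, Apoe (satellite glia) was lower at 30d than at 0d (-0.28, adjusted p = 0.0322) and than at 3d (-0.23, 0.0128). Cx3cr1 (macrophages) was lower at 3d than at 0d (-1.02, 0.0079) and at 1d (-0.75, 0.0476). It was the only macrophage marker called of 8, of which 3 were higher and 5 lower at 3d against 0d. At 3d against 1d, 1 was higher and 7 lower. At 1d against 0d, 4 were higher, among them C1qa (0.30) and C1qb (0.42), and 4 lower, with 0 called. Lum (fibroblasts) was lower at 1d than at 0d (-0.49, 0.0326). Myh1 (skeletal muscle) was lower at 1d (-1.47, 0.0324) and 3d (-1.61, 0.0237) than at 0d and higher at 30d than at 3d (1.35, 0.0292), at no more than 6.67 CPM in any library. Of the 6 skeletal muscle markers, 6 were lower at 1d and at 3d against 0d. At 30d against 3d, 2 were higher and 4 lower, and only Myh1 was called. Of the 6 Schwann cell, 6 T and B cell, 4 platelet, 4 endothelial and 5 red blood cell markers, 0 were called, nor were any of the 3 tested spinal cord markers. At an unadjusted p under 0.05, the Schwann cell markers gave 1 gene at 3d against 0d (5.94% of all genes) and 2 in 30d against 3d (13.01% of all genes), and the T and B cell, platelet, endothelial and red blood cell markers gave 0 in each comparison. The 8 calls of Apoe, Cx3cr1, Lum and Myh1 were each lost without either 3d library, which also enter the shared estimate of spread, and 4 of them without others too. Those were Lum and Myh1 at 1d (0d replicate 1 or either 1d library), Myh1 at 3d against 0d (0d replicate 1) and Cx3cr1 at 3d against 1d (any 0d or 1d library). With single libraries left out the log2 fold change ran from -0.64 to -0.33 for Lum, from -1.10 to -0.94 for Cx3cr1 at 3d against 0d and from -0.32 to -0.25 for Apoe at 30d against 0d. For Myh1 against 0d it ran from -1.82 to -1.01 at 1d and from -1.95 to -1.15 at 3d. The spinal cord genes Opalin and Slc18a3 were at 0 in every library.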

How the data were processed

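RNA of mouse DRG was sequenced in 8 libraries, 2 per time point. The authors deposited raw counts per gene in 1 table, made by trimming with cutadapt 2.10, aligning to mm10 with STAR 2.7.5a and counting over UCSC exons with featureCounts 2.0.1, without strand and with reads that overlap several genes given to each. Exons of the members overlap no other gene of the table. Library totals were 44123208 to 73580338.

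Genes were kept by filterByExpr, libraries scaled by TMM, and all 8 libraries fitted with the time point alone (edgeR 4.0.16 in R 4.3.3, quasi-likelihood, robust). A gene was called at a Benjamini-Hochberg adjusted p under 0.05 over all 17328 tested genes. Standard errors were derived from the fold change and its F statistic, and intervals are 95%. Log2 CPM used a prior count of 2. RPKM used the deposited exon length. Alternatives included DESeq2 1.42.0, limma 3.58.1 (voom), other scalings and filters, a replicate block, and each library left out. Replicates are separate pools of mice, per the labels.

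The members, and the 126 genes of 17 other lists, were chosen with earlier results of these data known, and so were the named-gene rules: all members, each listed gene called in any comparison, the 2 genes of each list with the smallest p over all time points, and for lists of other cells the 2 with the highest mean CPM. Listed genes beyond those that touch the members are given as counts. Drgx is Prrxl1 in the table. Promoter windows are from RefSeq (GRCm38.p6).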

Additional observations from a re-analysis of the deposited data

How the results depend on the processing

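The count of 0 members called held in all 5 comparisons under the 11 other settings and with each of the 8 libraries left out in turn, where the lowest and highest counts were 0 and 0. In the test over all time points DESeq2 called 1 member, Shox2, in place of 0. Over all genes it called 495 of 20550 there, against 177 of 17328 in the main fit. No member passed the threshold in the opposite direction under any setting. The deviations of same-numbered libraries correlated between -0.014 and 0.044, so replicate numbers showed little pairing by this measure. With the replicate block 0 members were called in each comparison. Over all genes, however, the block raised the calls in every comparison, from 4 to 69 for 30d against 0d and from 162 to 225 for 30d against 3d. The adjusted p of Shox2 at 1d against 0d was 0.0561 in DESeq2, and the lowest with a library left out was 0.0510, without 30d replicate 1. Its log2 fold change there ran from -0.34 to -0.30 with a library left out. Those of Runx3 and Etv1 at 3d against 0d ran from -0.37 to -0.21 and from -0.25 to -0.10. Scaling to the pan-neuronal markers, chosen after seeing the data, moved the median of all genes by at most 0.06 (log2) and called 0 members.

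Over all genes, the count called depended on the setting. For 30d against 0d it was 4, and it ranged from 0 without robust estimation to 202 without 30d replicate 2. Against 0d, DESeq2 called 106 genes at 1d, 107 at 3d and 184 at 30d, with 369 between 3d and 30d and 110 between 1d and 3d. With 3d replicate 1 left out, 30d against 3d fell from 162 to 12 calls, and 3d against 0d from 38 to 1. With groups of 2 libraries, the 95% intervals of the members against 0d reached as far as -29.1% (Runx3) and 14.5% (Pou4f3).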
